A study of Saccharomyces cerevisiae with 21 samples.

Results

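The arginine biosynthesis genes ARG1, ARG2, ARG3, ARG4, ARG5,6, ARG7, ARG8 and CPA1 of budding yeast were taken as members by name from the pathway. They were chosen with earlier results of these data known. Of the 8 listed genes, 7 had a probe set, 1 each, among the 5449 genes tested. ARG5,6 had no probe set under its name or gene number in the table that pairs probe sets with genes, and was not analysed here.

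Transcripts were measured on 21 biotin-labelled Affymetrix arrays, 3 for each of 7 groups, hybridised with total RNA from cultures in mid-log growth (30 °C) in YPD, a rich medium, or in CSM, a synthetic one. All groups carry his3Δ1, leu2Δ0 and ura3Δ0. The wild type, labelled MATa and called BY4741 in the authors' table, also carries met15Δ0 and was grown in both media. The first mutant, gal11Δ med3Δ, was grown in both media. It is labelled MATα and met15Δ0, and has GAL11 (named there as med15) and MED3 each replaced by kanMX4. The second mutant, gal11-myc med3Δ, was also grown in both media. It is labelled MATa and has med3Δ::URA3, a GAL11-13MYC fusion marked with HIS3MX, and a srb4Δ::kanMX deletion covered by a LEU2 plasmid, RY2844 (CEN, SRB4). A second wild type, BY4742, is labelled with lys2Δ0 and was grown in YPD only. Gal11 and Med3 belong to the tail of Mediator, the coactivator that links DNA-bound activators to RNA polymerase II. The comparisons ask how far these genes depend on that tail in each medium. The mutants differ from the wild type in more than the tail, in mating type or in the marker genes and the plasmid. LYS2 signal was also lost in gal11Δ med3Δ, so its comparisons set a strain without LYS2 signal against a strain with it. Among the alleles above, met15Δ0 is given for the wild type and gal11Δ med3Δ but not for gal11-myc med3Δ. All those parts cannot be told apart here.

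Yeast makes arginine from glutamate. Acetylated intermediates are turned into ornithine in the mitochondrial matrix, ornithine is exported to the cytosol, and there it is joined with carbamoyl phosphate to form citrulline, then argininosuccinate, then arginine. The pathway is known for control from opposite sides. Gcn4, the activator of amino acid synthesis genes, binds Gal11 and raises transcription of arginine genes. A repressor made of Arg80, Arg81, Arg82 and Mcm1 lowers ARG1, ARG3, ARG5,6 and ARG8 when arginine is present.

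Array values below are log2 values relative to the median of the 9 arrays of wild type and mutants in the same medium, because the deposited values are centred in that way. They show differences between strains within a medium. They give no level of a gene, and no value of a strain in CSM can be set against its value in YPD. A difference is a mutant mean minus a wild type mean on the log2 scale ± SE, with n = 3 arrays in each group. A gene is said to have risen or fallen where limma gave an adjusted p under 0.05 over the 5449 genes, and to be called where the change was also at least 2-fold. The labels do not say that the arrays of a group came from separate cultures, so p-values may cover only technical spread.

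As a check of the strains, GAL11 had differences of -6.43 ± 0.15 (YPD) and -5.62 ± 0.15 (CSM) for gal11Δ med3Δ, and of -0.59 ± 0.15 and -0.55 ± 0.15 for gal11-myc med3Δ. PGD1, the gene for Med3, lay between -4.51 ± 0.14 and -4.05 ± 0.14 in the 4 comparisons with the wild type. LYS2 was lower in gal11Δ med3Δ, at -6.50 ± 0.13 (YPD) and -6.88 ± 0.13 (CSM), although the label of that strain names no lysine allele. The median SD of a gene within a group ran from 0.046 in gal11-myc med3Δ in CSM to 0.141 in gal11Δ med3Δ in CSM. In the latter group replicate 1 stood apart, with a median absolute difference per gene of 0.220 and 0.235 from the other arrays, which differed from each other by 0.0659. In YPD replicate 3 of each strain lay farther from replicates 1 and 2 (0.134 to 0.216) than those from each other (0.0711 to 0.0835). YPD arrays with the same replicate number shifted together, although replicates 1 and 2 of different strains did so in part across numbers. For YPD a fit with the replicate number as a block is given wherever it changes a result.

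**Figure D1:**
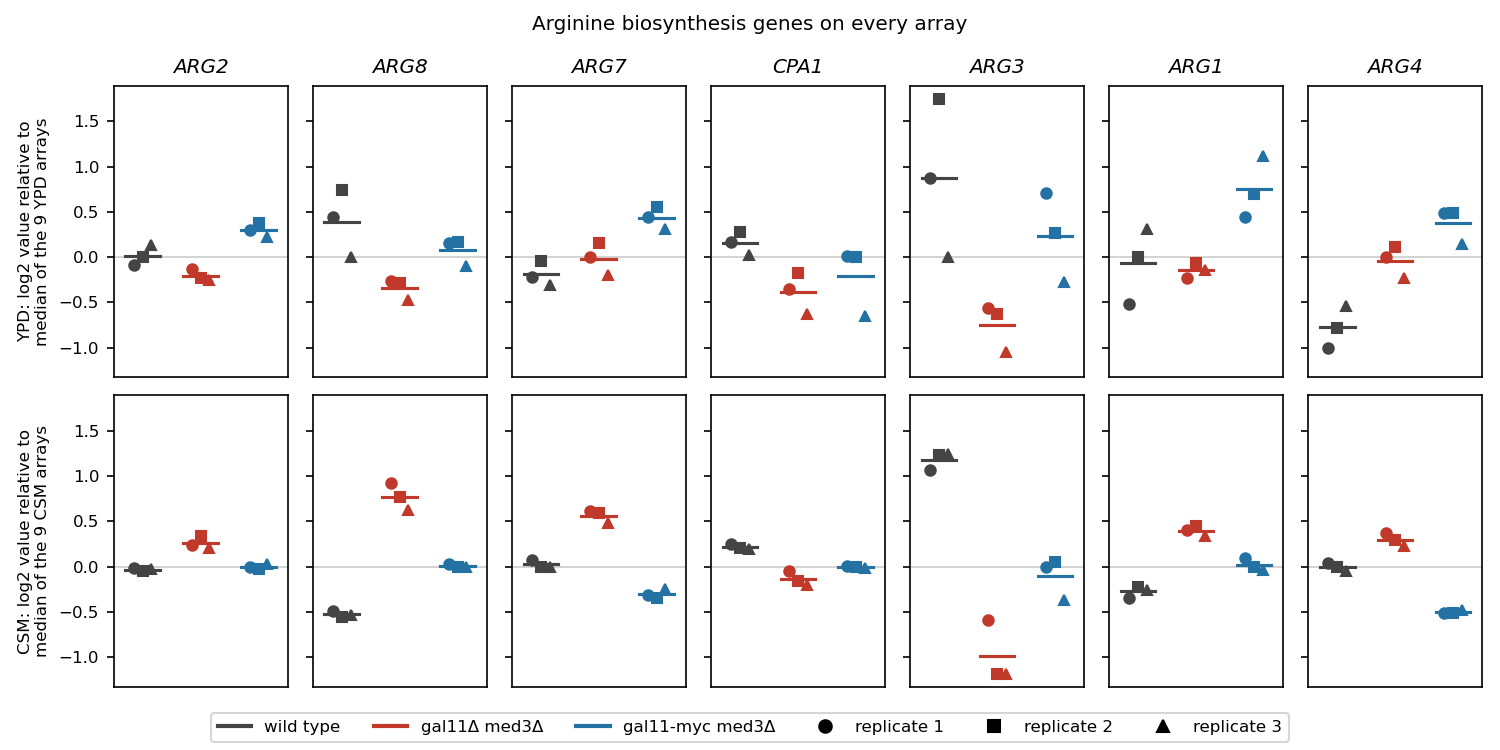
The 7 measured arginine genes on each array of the wild type and the mutants, in YPD (top) and CSM (bottom). Points are single arrays, marker shape gives the replicate number, lines are group means, and the y axis is the log2 value relative to the median of the 9 arrays of that medium. ARG3 of the wild type lies highest in CSM, from 1.06 to 1.24, and ARG8 of gal11Δ med3Δ lies highest in CSM but below the wild type mean in YPD.

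The arginine genes did not move as a block in either mutant. In gal11Δ med3Δ in YPD, 4 of the 7 genes fell (ARG2, ARG3, ARG8, CPA1), 1 rose (ARG4) and 2 did not pass. Among all genes, 19.4% fell and 27.5% rose in that comparison, 46.9% in either direction. In gal11Δ med3Δ in CSM, 3 rose (ARG2, ARG7, ARG8) and 2 fell (ARG3, CPA1), beside 27.1% of all genes that rose and 18.4% that fell, 45.5% together. In gal11-myc med3Δ in YPD, 3 rose (ARG2, ARG4, ARG7) and 0 fell, beside 21.2% and 12.1% of all genes, 33.3% together. With the replicate block in YPD the count for gal11-myc med3Δ came to 4 that rose and 2 that fell, with ARG1, ARG8 and CPA1 added. In gal11-myc med3Δ in CSM, 1 rose (ARG8) and 3 fell (ARG3, ARG4, ARG7), beside 22.4% and 14.2% of all genes, 36.6% together.

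Changes of at least 2-fold were few. ARG3 was called lower in gal11Δ med3Δ in both media and in gal11-myc med3Δ in CSM, ARG8 was called higher in gal11Δ med3Δ in CSM, and ARG4 was called higher in gal11-myc med3Δ in YPD. The share of all genes called was 7.47% and 9.29% for gal11Δ med3Δ in YPD and CSM, and 4.33% and 6.22% for gal11-myc med3Δ. For gal11Δ med3Δ the median difference of the 7 genes was -0.22 (YPD) and 0.30 (CSM), and for gal11-myc med3Δ it was 0.28 (YPD) and -0.22 (CSM). For all genes the medians were 0.03, 0.04, 0.03 and 0.06 in the same order. In CSM the 3 gal11Δ med3Δ arrays did not overlap the 3 wild type arrays for any of the 7 genes, where 58.2% of all genes did not overlap. The groups did not overlap for 5 of 7 genes for gal11Δ med3Δ grown in YPD, beside 52.4% of all genes, for 5 for gal11-myc med3Δ in YPD, beside 42.0%, and for 6 for gal11-myc med3Δ in CSM, beside 70.7%.

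**Figure D2:**
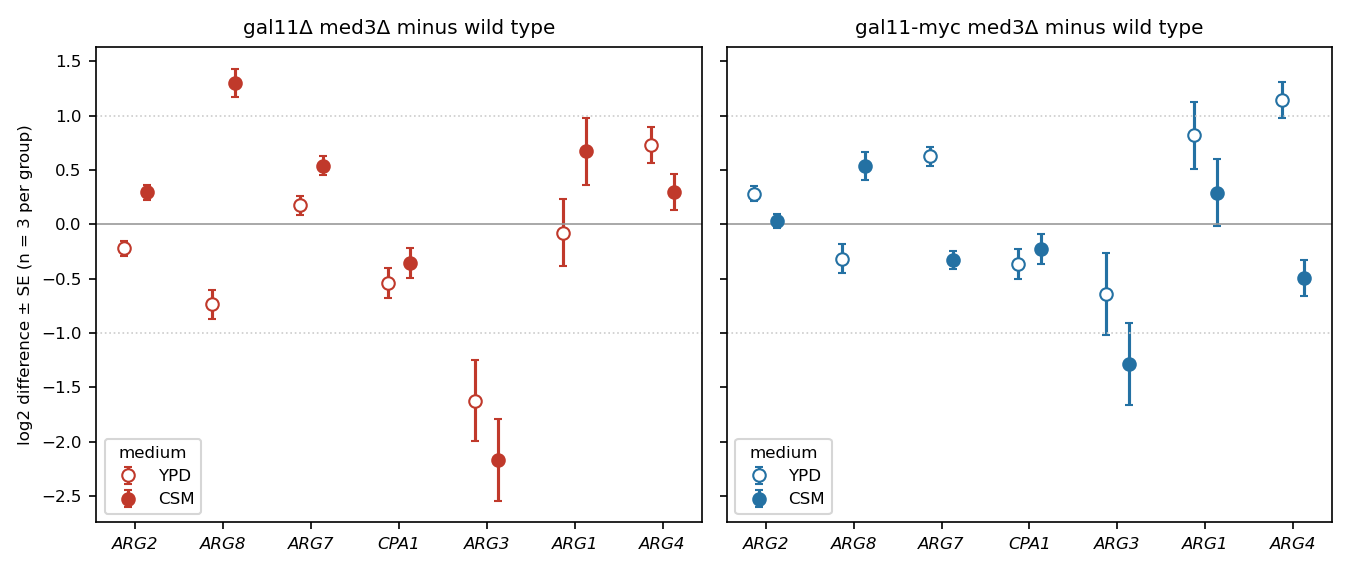
Mutant minus wild type for the 7 genes as log2 difference ± SE, with n = 3 arrays per group, for gal11Δ med3Δ (left) and gal11-myc med3Δ (right). Open circles are YPD, filled circles are CSM and dotted lines mark a 2-fold change. ARG3 lies below 0 in all 4 comparisons, and ARG8 lies below 0 in YPD and above 0 in CSM in both mutants.

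The ornithine branch in the mitochondria holds ARG2, ARG8 and ARG7. ARG8 encodes acetylornithine aminotransferase. In YPD its wild type arrays lay at 0.44, 0.74 and 0.00, those of gal11Δ med3Δ at -0.27, -0.29 and -0.47, and those of gal11-myc med3Δ at 0.16, 0.17 and -0.10. The gal11Δ med3Δ arrays were all below the wild type, while gal11-myc med3Δ overlapped it. ARG8 fell in gal11Δ med3Δ (-0.74 ± 0.13, adjusted p = 0.000235). The difference in gal11-myc med3Δ was -0.32 ± 0.13 (adjusted p = 0.0758, 0.0356 with the replicate block within medium and 0.0273 with the block in YPD alone). It depended on single arrays, with -0.51 without wild type YPD replicate 3 (adjusted p = 0.00119) and -0.14 without wild type YPD replicate 2 (adjusted p = 0.410).

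In CSM the order of the strains for ARG8 was turned. The wild type arrays lay at -0.49, -0.56 and -0.53, those of gal11Δ med3Δ at 0.92, 0.77 and 0.63, and those of gal11-myc med3Δ at 0.03, 0.00 and -0.0042. The 3 groups did not overlap, with the wild type lowest and gal11Δ med3Δ highest. ARG8 rose 2.46-fold in gal11Δ med3Δ (1.30 ± 0.13, adjusted p = 3.97e-07) and 1.45-fold in gal11-myc med3Δ (0.54 ± 0.13, adjusted p = 0.00386).

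ARG7 encodes ornithine acetyltransferase, which releases ornithine and passes its acetyl group back to glutamate. In YPD the wild type arrays lay at -0.22, -0.05 and -0.31, those of gal11Δ med3Δ at 0.00, 0.15 and -0.20, and those of gal11-myc med3Δ at 0.45, 0.55 and 0.30. Only the gal11-myc med3Δ arrays stood clear of the wild type. ARG7 rose there (0.63 ± 0.09, adjusted p = 3.24e-05), and its difference in gal11Δ med3Δ was 0.18 ± 0.09 (adjusted p = 0.105). That difference passed with the replicate block in YPD alone (adjusted p = 0.0378), without wild type YPD replicate 2 (0.0411) and without gal11Δ med3Δ YPD replicate 3 (0.0175). It did not pass with any of the other 4 arrays left out, and was 0.09 without gal11Δ med3Δ YPD replicate 2 (adjusted p = 0.417).

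In CSM the mutants lay on opposite sides of the wild type for ARG7. The wild type arrays lay between -0.0042 and 0.07, those of gal11Δ med3Δ between 0.49 and 0.61, and those of gal11-myc med3Δ between -0.35 and -0.25. ARG7 rose in gal11Δ med3Δ (0.54 ± 0.09, adjusted p = 6.55e-05) and fell in gal11-myc med3Δ (-0.33 ± 0.09, adjusted p = 0.00621).

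ARG2 encodes acetylglutamate synthase, the first step of the branch. Its changes were small and turned sign between media in gal11Δ med3Δ, from -0.22 ± 0.07 in YPD (adjusted p = 0.0113) to 0.29 ± 0.07 in CSM (adjusted p = 0.00154). Without wild type YPD replicate 3 the fall in YPD was -0.16 and no longer passed (adjusted p = 0.0559), nor did it in a fit of the compared groups alone (adjusted p = 0.0845). In gal11-myc med3Δ ARG2 rose in YPD (0.28 ± 0.07, adjusted p = 0.00336, and 0.0653 in a fit of the compared groups alone), and in CSM its difference was 0.03 ± 0.07 (adjusted p = 0.741). ORT1, the carrier that exports ornithine from mitochondria, rose in gal11Δ med3Δ in YPD (0.50 ± 0.07) and CSM (0.95 ± 0.07) and in gal11-myc med3Δ in YPD (0.50 ± 0.07). Its difference in gal11-myc med3Δ in CSM was 0.19 ± 0.07 (adjusted p = 0.0502).

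CPA1 encodes the small subunit of the carbamoyl phosphate synthetase that serves arginine. Its mRNA carries a short upstream reading frame through which arginine stops translation. CPA1 fell in gal11Δ med3Δ in YPD (-0.54 ± 0.14, adjusted p = 0.00407), with wild type arrays between 0.02 and 0.28 and mutant arrays between -0.63 and -0.18. In CSM it fell as well (-0.36 ± 0.14, adjusted p = 0.0432), but not without the BY4742 arrays (adjusted p = 0.0579), and that call was lost in 5 of the 6 fits that left out 1 array of either group (adjusted p up to 0.114), all but the one without gal11Δ med3Δ replicate 1. In gal11-myc med3Δ the differences were -0.37 ± 0.14 in YPD (adjusted p = 0.0513) and -0.22 ± 0.14 in CSM (adjusted p = 0.229). The YPD value passed with the replicate block within medium (adjusted p = 0.0132) and with the block in YPD alone (0.00774). Replicate 3 of gal11-myc med3Δ in YPD lay at -0.65 while the other arrays lay at 0.01 and 0.00, and without it the difference was -0.15 (adjusted p = 0.308). The YPD difference passed without wild type YPD replicate 3 (adjusted p = 0.0377) and without gal11-myc med3Δ YPD replicate 1 (0.0228) or 2 (0.0244). The CSM difference in gal11-myc med3Δ passed in a fit of the compared groups alone, with an SE of 0.031 (adjusted p = 0.000631). It also passed with array weights (adjusted p = 0.00545) and without the YPD arrays numbered 3 (0.00404). It passed in 0 of the 6 fits that left out 1 array (adjusted p from 0.298 to 0.367). The SE in those fits is pooled over all groups, so this count cannot show whether single arrays carry the difference. The difference itself ran from -0.23 to -0.21 in them.

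The upstream reading frame of CPA1 is annotated as a gene of its own, YOR302W, and had its own probe set. It was looked up as a neighbour of CPA1 after values had been seen. YOR302W fell in gal11Δ med3Δ in YPD (-0.56 ± 0.19, adjusted p = 0.0224) and CSM (-0.90 ± 0.19, adjusted p = 0.000803) and in gal11-myc med3Δ in CSM (-0.62 ± 0.19, adjusted p = 0.0154). Its difference in gal11-myc med3Δ in YPD was -0.46 ± 0.19 (adjusted p = 0.0707). Both probe sets can report the same mRNA.

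ARG3 encodes ornithine carbamoyltransferase, which makes citrulline in the cytosol. In CSM the wild type arrays lay at 1.06, 1.23 and 1.24, those of gal11Δ med3Δ at -0.59, -1.18 and -1.18, and those of gal11-myc med3Δ at 0.00, 0.05 and -0.37. The groups did not overlap, and gal11-myc med3Δ lay between the others. The array at -0.59 is the gal11Δ med3Δ replicate that stood apart. ARG3 fell 4.49-fold in gal11Δ med3Δ (-2.17 ± 0.38, adjusted p = 0.000142, and -2.36 without replicate 1) and 2.44-fold in gal11-myc med3Δ (-1.29 ± 0.38, adjusted p = 0.0121). Without gal11-myc med3Δ CSM replicate 3 the latter was -1.16 and did not pass (adjusted p = 0.0521).

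In YPD the wild type itself was spread for ARG3, with arrays at 0.87, 1.74 and 0.00. Those of gal11Δ med3Δ lay at -0.57, -0.63 and -1.05, all below the wild type, and those of gal11-myc med3Δ at 0.70, 0.27 and -0.28, which overlapped it. ARG3 fell 3.07-fold in gal11Δ med3Δ (-1.62 ± 0.38, adjusted p = 0.00204). The difference in gal11-myc med3Δ was -0.64 ± 0.38 (adjusted p = 0.210). It was -1.08 without wild type YPD replicate 3 (adjusted p = 0.0266) and -0.20 without wild type YPD replicate 2 (adjusted p = 0.728). Replicate 3 was the lowest array of each strain in YPD.

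ARG1 encodes argininosuccinate synthetase. In CSM its groups were tight and did not overlap, with wild type arrays at -0.35, -0.22 and -0.25, gal11Δ med3Δ at 0.40, 0.45 and 0.34, and gal11-myc med3Δ at 0.09, 0.00 and -0.03. The difference in gal11Δ med3Δ was 0.67 ± 0.31 (adjusted p = 0.0875). Its SE is pooled over all groups, and ARG1 of BY4742 lay at -1.60 on one array and at 0.03 and 0.00 on the others. Without the BY4742 arrays the same difference had an SE of 0.17 and passed (adjusted p = 0.00449), and it passed with the replicate block in YPD alone (adjusted p = 0.0143), which lowers the pooled SE to 0.21. In gal11-myc med3Δ in CSM the difference was 0.29 ± 0.31 (adjusted p = 0.502, and 0.202 without BY4742). It passed in a fit of the compared groups alone, with an SE of 0.049 (adjusted p = 0.00155). The authors' deposited table gives it a corrected p-value of 0.0230. It passed in 0 of the 6 fits that left out 1 array (adjusted p from 0.560 to 0.649). The SE in those fits is pooled over all groups, so this count cannot show whether single arrays carry the difference. The difference itself ran from 0.26 to 0.32 in them.

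In YPD the ARG1 arrays of gal11-myc med3Δ, at 0.44, 0.70 and 1.11, lay above those of the wild type at -0.51, 0.00 and 0.31. The difference was 0.82 ± 0.31 (adjusted p = 0.0508). It passed with the replicate block within medium (adjusted p = 0.0118), with the block in YPD alone (0.00609) and without BY4742 (0.00171). It also passed without wild type YPD replicate 3 (1.01, adjusted p = 0.0293) and without gal11-myc med3Δ YPD replicate 1 (0.97, adjusted p = 0.0452), and did not pass with any of the other 4 arrays left out (as low as 0.60, adjusted p up to 0.210). In gal11Δ med3Δ the YPD difference was -0.08 ± 0.31 (adjusted p = 0.855), and 0.11 without wild type YPD replicate 3.

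ARG4 encodes argininosuccinate lyase, the last step. In YPD the wild type arrays, at -1.003, -0.78 and -0.54, lay below both mutants. The gal11Δ med3Δ arrays lay at 0.00, 0.11 and -0.23 and those of gal11-myc med3Δ at 0.49, 0.48 and 0.15. ARG4 rose in gal11Δ med3Δ (0.73 ± 0.16, adjusted p = 0.00161) and 2.21-fold in gal11-myc med3Δ (1.15 ± 0.16, adjusted p = 4.85e-05).

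In CSM the mutants lay on opposite sides of the wild type for ARG4. The wild type arrays lay at 0.04, 0.00 and -0.05, those of gal11Δ med3Δ at 0.37, 0.29 and 0.23, and those of gal11-myc med3Δ at -0.51, -0.51 and -0.48. The difference in gal11Δ med3Δ was 0.30 ± 0.16 (adjusted p = 0.150, and 0.0451 without BY4742). ARG4 fell in gal11-myc med3Δ (-0.50 ± 0.16, adjusted p = 0.0251), although that call was lost in 5 of the 6 fits that left out 1 array (adjusted p up to 0.0709), all but the one without wild type CSM replicate 3. The SE in those fits is pooled over all groups. A fit of the compared groups alone gave an SE of 0.035 and an adjusted p of 1.89e-05.

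The difference between media asks whether a mutant minus wild type difference in CSM departs from that in YPD. In gal11Δ med3Δ it was positive and passed for ARG8 (2.04 ± 0.19, adjusted p = 5.20e-07), ARG2 (0.51 ± 0.09, adjusted p = 0.000523) and ARG7 (0.36 ± 0.12, adjusted p = 0.0321), 3 of 7 genes, where 15.1% of all genes passed upward and 16.0% downward, 31.1% together. The ARG7 call was lost in a fit of the compared groups alone (adjusted p = 0.0731), with all probe sets (0.0594), with array weights (0.0643), with array medians subtracted (0.0505) and in 7 of the 12 fits that left out 1 array (adjusted p up to 0.0918). Those 7 fits were without wild type YPD replicate 2, gal11Δ med3Δ YPD replicates 1 and 3, wild type CSM replicates 2 and 3, and gal11Δ med3Δ CSM replicates 1 and 2. In gal11-myc med3Δ the difference between media was negative for ARG4 (-1.64 ± 0.23, adjusted p = 9.31e-05) and ARG7 (-0.96 ± 0.12, adjusted p = 3.74e-05) and positive for ARG8 (0.85 ± 0.19, adjusted p = 0.00448), also 3 of 7, where 5.51% of all genes passed upward and 8.17% downward, 13.7% together. ARG8 in gal11Δ med3Δ and ARG4 in gal11-myc med3Δ were past 2-fold, as were 7.18% and 3.06% of all genes. For ARG2 in gal11-myc med3Δ the value was -0.25 ± 0.09 (adjusted p = 0.0925), and without wild type YPD replicate 3 it was -0.31 and passed (adjusted p = 0.0224).

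For ARG8 and ARG2 in gal11Δ med3Δ, and for ARG4 and ARG7 in gal11-myc med3Δ, the differences within the media passed with opposite signs. For ARG3 the difference between media was -0.55 ± 0.53 in gal11Δ med3Δ (adjusted p = 0.466) and -0.65 ± 0.53 in gal11-myc med3Δ (adjusted p = 0.480). For CPA1 these were 0.18 ± 0.20 (adjusted p = 0.510) and 0.14 ± 0.20 (adjusted p = 0.687). For ARG1 they were 0.75 ± 0.44 (adjusted p = 0.210, and 0.0271 without BY4742) and -0.53 ± 0.44 (adjusted p = 0.486). For ARG4 in gal11Δ med3Δ it was -0.43 ± 0.23 (adjusted p = 0.172). Whether the wild type or the mutant moves between media cannot be read from these values.

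**Figure D3:**
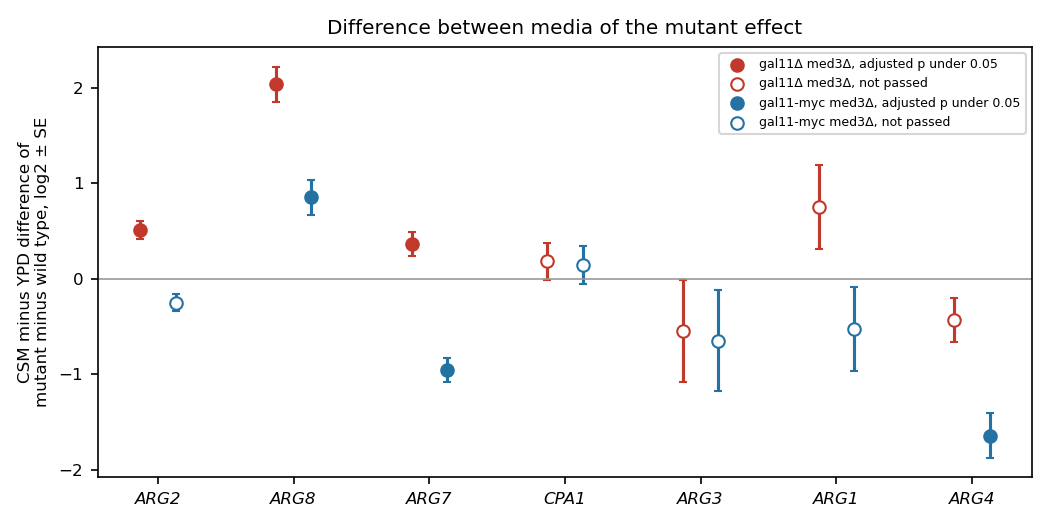
CSM minus YPD difference of mutant minus wild type for the 7 genes, as log2 ± SE. Red is gal11Δ med3Δ, blue is gal11-myc med3Δ, and filled points had an adjusted p under 0.05. ARG8 is positive in both mutants at 2.04 and 0.85, and ARG7 lies at 0.36 in gal11Δ med3Δ and at -0.96 in gal11-myc med3Δ.

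The mutants share the wild type arrays, so they were also compared directly. In YPD the 7 genes all lay higher on average in gal11-myc med3Δ than in gal11Δ med3Δ, by 0.18 to 0.98. The difference passed for ARG2 (0.50 ± 0.07), ARG7 (0.45 ± 0.09) and ARG8 (0.42 ± 0.13, adjusted p = 0.0403), beside 6.15% of all genes that were higher and 8.96% that were lower in that comparison, 15.1% together. The ARG8 call was lost in 5 of the 6 fits that left out 1 array (adjusted p up to 0.149), all but the one without gal11-myc med3Δ YPD replicate 3, and also in a fit of the compared groups alone (0.0584), without BY4742 (0.0535) and with all probe sets (0.0648). The fit of the compared groups alone ended the ARG7 call too (0.0627). ARG1 (0.90) passed as well with the replicate block within medium (adjusted p = 0.0147) or in YPD alone (0.00691). It also passed without BY4742 (adjusted p = 0.00177) and in a fit of the compared groups alone (0.0244). With 1 array left out ARG1 passed in 0 of 6 fits (adjusted p from 0.0708 to 0.158). ARG4 passed without BY4742 (0.41, adjusted p = 0.0239). Arrays did not overlap for 6 of 7 genes, where 31.0% of all genes did not overlap. Without gal11-myc med3Δ YPD replicate 3, ARG3 (1.23, adjusted p = 0.0424), ARG4 (0.53, adjusted p = 0.0479) and CPA1 (0.39, adjusted p = 0.0108) passed too. None of these 3 passed with another array left out, and CPA1 was then as low as 0.05 (adjusted p up to 0.864).

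In CSM the order was turned for 5 of the 7 genes. ARG7 (-0.87 ± 0.09, adjusted p = 1.61e-06), ARG4 (-0.80 ± 0.16, adjusted p = 0.00268), ARG8 (-0.76 ± 0.13, adjusted p = 0.000580) and ARG2 (-0.26 ± 0.07, adjusted p = 0.0112) were lower in gal11-myc med3Δ and 0 were higher, beside 10.3% and 7.65% of all genes, 17.9% together. ARG2 did not pass without gal11Δ med3Δ CSM replicate 2 (adjusted p = 0.0508). The difference was -0.38 ± 0.31 for ARG1, 0.14 ± 0.14 for CPA1 and 0.88 ± 0.38 for ARG3 (adjusted p = 0.123). Arrays did not overlap for any of the 7 genes, where 41.5% of all genes did not overlap. No arginine gene differed by 2-fold between the mutants in either medium at an adjusted p under 0.05, where 2.02% (YPD) and 2.17% (CSM) of all genes did.

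The 7 genes fell into subsets by their values over the 18 arrays of wild type and mutants, after the mean of each medium was subtracted. Pearson's r was 0.86 between ARG4 and ARG7, 0.83 between ARG1 and ARG2, and 0.82 between ARG3 and CPA1. Among the 5448 other genes, ARG7 was rank 5 in likeness to ARG4, ARG2 was rank 3 to ARG1, and CPA1 was rank 133 to ARG3. ARG8 was less like any other member, with r = 0.57 to ARG2 at most. ARG3 had a negative r with ARG1, ARG2, ARG4, ARG7 and ARG8, from -0.37 to -0.11. The arrays fall into 3 strains in each of 2 media, so these values describe how strains and single arrays line up, and they carry no test.

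**Figure D4:**
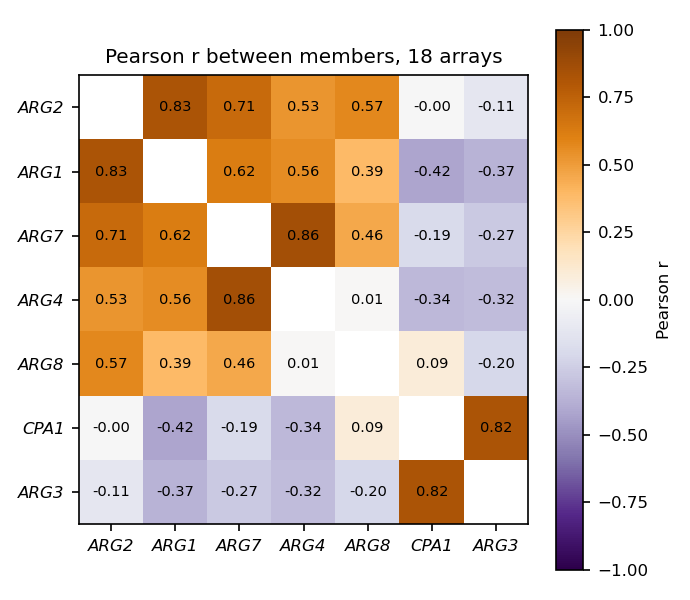
Pearson's r between the 7 genes over 18 arrays, after the mean of each medium was subtracted from each gene. Purple to orange runs from -1 to 1. ARG4 and ARG7 (0.86), ARG1 and ARG2 (0.83) and ARG3 and CPA1 (0.82) have the highest values.

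Outside the members, the gene most like ARG3 was YBR242W (r = 0.97), followed by GRE1 (0.96) and KTI11 (0.94). For ARG8 these were AAD10 (0.96), CAF4 (0.93) and CBC2 (0.92), for ARG7 FMP23 (0.94), UGA3 (0.92) and SDT1 (0.91), and for CPA1 STP3 (0.94), NCS2 (0.93) and FSH1 (0.92). ARG4 was most like RTC2 (0.90), DFR1 (0.87) and UGA3 (0.86). ARG2 was most like VTC4 (0.84), BIO4 (0.84) and VTC3 (0.82), and ARG1 like VTC2 (0.83), FIT1 (0.83) and VHT1 (0.82). AAD10 followed ARG8 in size, with -0.79 and 1.09 in gal11Δ med3Δ in YPD and CSM. The mean of the 7 genes was less like any gene, with ERP2 (0.79), SAE3 (0.79) and IMP2 (0.79) highest.

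Of 7 genes that regulate the pathway or its breakdown counterpart, 0 were called in the 4 comparisons with the wild type. Their counts below stand beside the shares of all genes printed earlier, where the arginine genes were counted. In gal11Δ med3Δ 1 rose and 3 fell in YPD, and 1 rose and 2 fell in CSM, and in gal11-myc med3Δ 1 rose and 3 fell in YPD, and 0 rose and 4 fell in CSM. MCM1, a DNA-binding protein with many targets besides arginine genes, fell in all 4, by -0.94 ± 0.12 and -0.67 ± 0.12 in gal11Δ med3Δ in YPD and CSM and by -0.97 ± 0.12 and -0.49 ± 0.12 in gal11-myc med3Δ. ARG80 fell in gal11-myc med3Δ in CSM (-0.73 ± 0.24), and its difference in gal11Δ med3Δ in CSM was -0.43 ± 0.24. ARG82 rose in YPD in gal11Δ med3Δ (0.54 ± 0.10) and gal11-myc med3Δ (0.31 ± 0.10). In CSM its differences were 0.09 ± 0.10 and -0.05 ± 0.10 and did not pass. UME6, a repressor of CAR1, fell in all 4 comparisons, by -0.57 to -0.31. GCN4, singled out after its values were seen because it activates the pathway, fell in gal11-myc med3Δ in YPD (-0.19 ± 0.05) and CSM (-0.17 ± 0.05). Gcn4 is known to be set mainly by translation of its mRNA, which these arrays do not measure.

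Of 6 genes of arginine and proline breakdown and interconversion, 5 rose and 0 fell in gal11Δ med3Δ in YPD, and 4 rose and 1 fell in CSM. In gal11-myc med3Δ 3 of 6 rose in each medium and 0 fell. These counts stand beside the shares of all genes given above for the same comparisons. CAR1, the arginase that splits arginine into ornithine and urea, rose in all 4, by 0.70 ± 0.12 and 1.20 ± 0.12 in gal11Δ med3Δ in YPD and CSM and by 0.40 ± 0.12 and 0.43 ± 0.12 in gal11-myc med3Δ. PUT2, a proline breakdown enzyme, rose by 1.25 ± 0.11 in gal11Δ med3Δ and 1.003 ± 0.11 in gal11-myc med3Δ in YPD, and by 0.34 ± 0.11 and 0.32 ± 0.11 in CSM. PUT1, proline oxidase, rose by 1.21 ± 0.27 in gal11Δ med3Δ in YPD. PUT3, the activator of PUT1 and PUT2, fell in gal11Δ med3Δ in CSM (-0.63 ± 0.20).

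Among 9 carriers of basic amino acids, 3 rose and 1 fell in gal11Δ med3Δ in YPD, and 6 rose and 0 fell in CSM. In gal11-myc med3Δ 4 rose and 0 fell in YPD, and 4 rose and 1 fell in CSM. These carrier counts are to be read beside the shares of all genes printed earlier, where the arginine genes were counted. ALP1, an arginine transporter, rose in gal11Δ med3Δ in CSM (2.59 ± 0.28) and in gal11-myc med3Δ in YPD (0.90 ± 0.28) and CSM (1.98 ± 0.28), and its difference in gal11Δ med3Δ in YPD was 0.48 ± 0.28. CAN1, the arginine permease, rose in gal11Δ med3Δ in YPD (1.04 ± 0.13) and CSM (0.69 ± 0.13) and had differences of 0.21 ± 0.13 and 0.02 ± 0.13 in gal11-myc med3Δ. GAP1, the general amino acid permease, had differences of 2.65 ± 0.18 and 2.07 ± 0.18 in gal11Δ med3Δ and of 1.69 ± 0.18 and 0.23 ± 0.18 in gal11-myc med3Δ, of which the last did not pass. VBA1, a vacuolar carrier of basic amino acids, rose in gal11Δ med3Δ in CSM (1.16 ± 0.15).

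**Figure D5:**
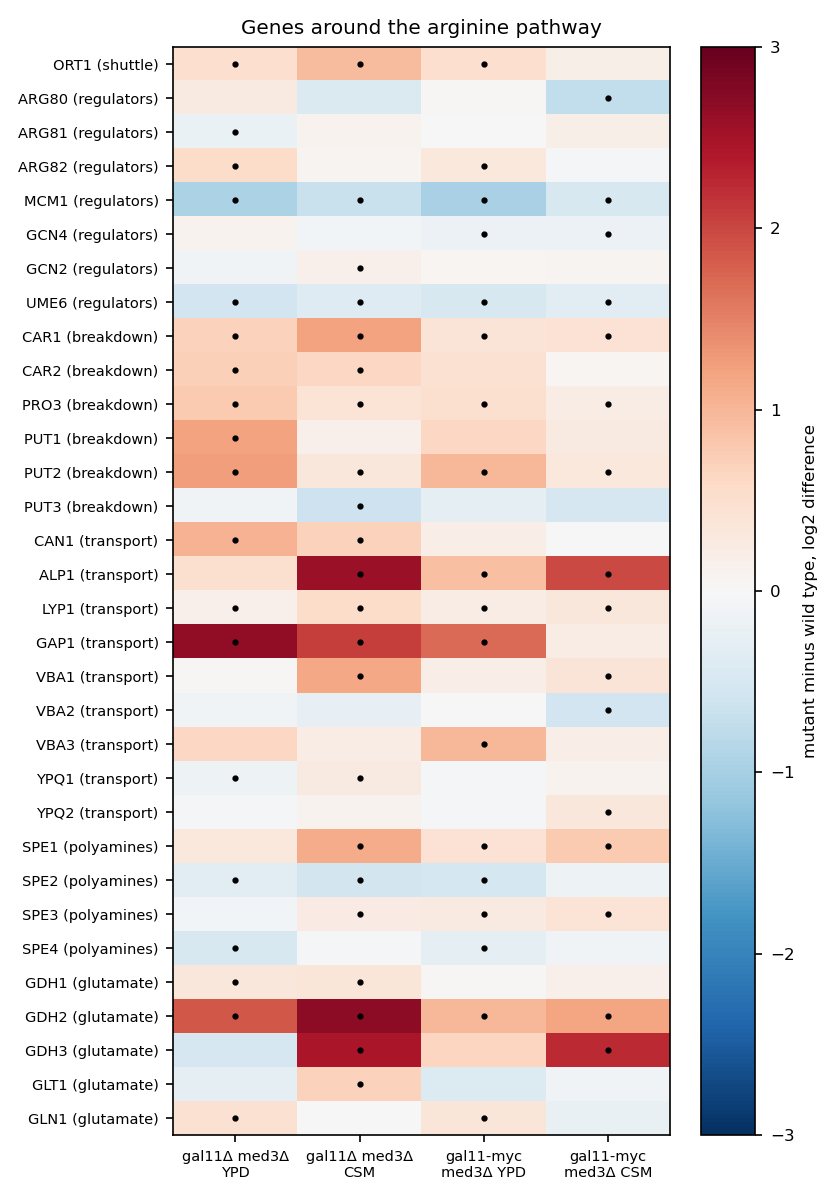
Mutant minus wild type as log2 difference (colour, blue lower and red higher) for genes around the arginine pathway in the 4 comparisons. Dots mark an adjusted p under 0.05. MCM1 and UME6 fell in every column, and GDH3 in gal11Δ med3Δ lies at -0.50 in YPD and at 2.46 in CSM.

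SPE1, ornithine decarboxylase, which takes ornithine to polyamines, rose in gal11Δ med3Δ in CSM (1.12 ± 0.13) and in gal11-myc med3Δ in YPD (0.45 ± 0.13) and CSM (0.77 ± 0.13). Of the 4 polyamine genes, 0 rose and 2 fell in gal11Δ med3Δ in YPD, 2 rose and 1 fell in CSM, 2 rose and 2 fell in gal11-myc med3Δ in YPD, and 2 rose and 0 fell in CSM. Of 5 genes that make or use glutamate and glutamine, 3 (YPD) and 4 (CSM) rose in gal11Δ med3Δ, 2 rose in gal11-myc med3Δ in each medium, and 0 fell in any. Both lists are to be read beside the shares of all genes printed earlier, where the arginine genes were counted. GDH3, a glutamate dehydrogenase that makes glutamate, rose in CSM in gal11Δ med3Δ (2.46 ± 0.42) and gal11-myc med3Δ (2.25 ± 0.42), with -0.50 ± 0.42 and 0.64 ± 0.42 in YPD. GDH2, which breaks glutamate down, rose in all 4, by 0.99 ± 0.23 to 2.68 ± 0.23.

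Histidine and lysine synthesis genes are also targets of Gcn4. Of 7 histidine genes, 4 rose and 0 fell (YPD) and 3 rose and 2 fell (CSM) in gal11Δ med3Δ, and 4 rose and 0 fell (YPD) and 0 rose and 3 fell (CSM) in gal11-myc med3Δ. These counts include HIS3, although all groups carry his3Δ1 and gal11-myc med3Δ has a HIS3MX marker. HIS3 rose in gal11Δ med3Δ in both media and in gal11-myc med3Δ in YPD. Of 7 lysine genes, LYS2 included, 1 rose and 4 fell (YPD) and 1 rose and 2 fell (CSM) in gal11Δ med3Δ. In gal11-myc med3Δ 1 rose and 1 fell (YPD) and 0 rose and 1 fell (CSM). The shares of all genes given above for these comparisons stand beside both lists. In gal11-myc med3Δ the difference between media was negative for 6 of 7 histidine genes at an adjusted p under 0.05. This stands beside 2 of 7 arginine genes and 8.17% of all genes. HIS4 was at -2.61 ± 0.38 and HIS7 at -1.22 ± 0.12, and HIS3, 1 of the 6, was at -0.39 ± 0.11. HIS4 fell in gal11-myc med3Δ in CSM (-1.90 ± 0.27), as did ARG4 and ARG7, while HIS4 in gal11Δ med3Δ in CSM (-0.76 ± 0.27) fell where ARG7 rose. Lysine genes other than LYS2 had differences between media of -0.73 to 0.31 in gal11-myc med3Δ and of 0.20 to 0.98 in gal11Δ med3Δ. LYS2 signal was not lost in gal11-myc med3Δ, and its difference between media there was -1.18 ± 0.18 (adjusted p = 0.000235), past 2-fold. With LYS2 counted, 2 of 7 lysine genes passed downward between media in gal11-myc med3Δ and 0 upward. LYS20 fell in gal11Δ med3Δ in YPD (-1.50 ± 0.11). The difference between these lists was not tested.

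The authors' deposited table also sets the wild types against each other in YPD. Its heading reads BY4741 vs BY4742, yet LYS2, which the labels list as deleted in BY4742, has a fold change of -88.4 in that table, so its values run as BY4742 relative to BY4741 if the labels are right. In the authors' deposited table MFA2, an a-factor gene, has -163.7 there and STE3, a receptor made by α cells, has 38.6, although BY4742 is labelled MATa. In the authors' deposited table the arginine genes had corrected p-values from 0.503 to 0.968 there, with fold changes of 2.43 for ARG1, 1.69 for ARG3 and 1.45 for ARG4. In that table no arginine gene had a corrected p-value under 0.05 for either mutant in YPD. For CSM the authors' deposited table gives corrected p-values under 0.05 to all 7 in gal11Δ med3Δ, with 5 higher and 2 lower, and to 6 in gal11-myc med3Δ, with 2 higher and 4 lower. The authors' test is not stated in the sources used here.

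None of the 7 genes is next to another member in the R64 annotation. Their 14 nearest tested genes were looked up after values had been seen. Beside ARG8, CDC33 and PPM2 had differences between media of 0.05 and 0.10 in gal11Δ med3Δ, where ARG8 had 2.04. Other neighbours had values near that of their member. PSF2 had 0.75 ± 0.12 (adjusted p = 0.000153) beside ARG2 at 0.51, and RNA14 had 0.37 ± 0.11 (adjusted p = 0.0162) beside ARG7 at 0.36. Of the 14, 3 passed upward and 0 downward in that difference, beside 15.1% and 16.0% of all genes. Beside ARG3, SIP4, an activator of gluconeogenic genes, rose in gal11Δ med3Δ in CSM (1.68 ± 0.29), where ARG3 fell, and TRL1, the tRNA ligase, fell (-0.45 ± 0.11). In gal11Δ med3Δ in CSM 4 of the 14 rose and 2 fell, beside 27.1% and 18.4% of all genes. By at least 2-fold it was 1 of the 14, beside 9.29% of all genes.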

How the data were processed

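Per the submitters' processing notes, the arrays were summarised with RMA, with no version given. The authors' deposited matrix gives 10928 probe sets on 21 arrays as log2 values. Each probe set (100% of them) has a median of 0 within 3 sets of arrays, namely the 9 from CSM, the 9 from YPD other than BY4742, and the 3 of BY4742, so levels and differences between these sets are lost. Per the file headers, the authors' fold changes come from GeneSpring 11.5.1, are linear scores with a sign, and were filtered differently for YPD and CSM. The authors' table also gives p-values and corrected p-values, with the test not stated. The log2 scale was read from the CSM fold changes, of which 100% matched within 0.001. In YPD 2.80% (gal11-myc med3Δ) and 2.74% (gal11Δ med3Δ) did, with correlations of 0.992 and 0.996.

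Probe sets with 1 symbol (7244) were matched to the R64 gene table (used for names and neighbours only), which named 5498. Probe sets of 1 gene were averaged, giving 5449 genes. R 4.3.3 with limma 3.58.1 (lmFit, eBayes) fitted 7 group means over 21 arrays with 14 residual degrees of freedom, with 2-sided p-values adjusted by Benjamini-Hochberg over 5449 genes. The fit was tested on simulated data. The number of arrays limits precision. The labels give replicate numbers. In YPD all 9 pairs of same-numbered arrays had correlated deviations from their group means (0.15 to 0.61), against 2 of 9 over 0.1 in CSM, so the numbers were taken to pair arrays in YPD only. Of the 18 YPD pairs with unlike numbers, 5 were also over 0.1 (up to 0.45), all between replicates 1 and 2. The values set replicate 3 apart, and do not settle that the numbers pair replicates 1 and 2, as the block assumes.

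Members and gene lists were chosen with earlier results of these data known. Every member is named. From other lists, up to 4 genes with the largest difference and those called are named, and for likeness the 3 genes with the highest r. Alternatives covered the block, the arrays in the fit, scaling, probe sets, the estimate of spread, the fold threshold, the authors' values and each array left out. Fits without the YPD arrays numbered 3, and with the block in YPD only, were added after the data were seen. No sequence is given because no sequence table was used here.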

Additional observations from a re-analysis of the deposited data

Results flagged for a closer look

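Mutant minus wild type differed between CSM and YPD, by the interaction term in limma, for 6 pairs of gene and mutant. In gal11Δ med3Δ the CSM minus YPD difference was 2.04 ± 0.19 for ARG8 (adjusted p = 5.20e-07), 0.51 ± 0.09 for ARG2 (adjusted p = 0.000523) and 0.36 ± 0.12 for ARG7 (adjusted p = 0.0321). In gal11-myc med3Δ it was -1.64 ± 0.23 for ARG4 (adjusted p = 9.31e-05), -0.96 ± 0.12 for ARG7 (adjusted p = 3.74e-05) and 0.85 ± 0.19 for ARG8 (adjusted p = 0.00448). Each difference is formed from 12 arrays, 3 in each of 4 groups, while its SE is pooled over all 21 arrays. In a fit of the compared groups alone ARG7 in gal11Δ med3Δ did not pass (adjusted p = 0.0731), and the other pairs did. The ARG7 call in gal11Δ med3Δ was also lost in 7 of the 12 fits that left out 1 array. For ARG8 the 3 gal11Δ med3Δ arrays lay below all 3 wild type arrays in YPD and above all 3 in CSM.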

How the results depend on the processing

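Of 532 values of the 7 genes under other settings, 467 kept direction and side of the threshold, 41 passed where the reported fit did not, 22 no longer passed and 2 changed sign. Without the YPD arrays numbered 3, ARG1 in gal11Δ med3Δ in YPD was 0.11 and the gal11-myc med3Δ difference between media of CPA1 was -0.0101. Of 420 values with 1 array left out, 380 kept both, 13 newly passed, 25 no longer passed and 2 changed sign, namely ARG1 in gal11Δ med3Δ in YPD without wild type replicate 3 (0.11) and CPA1 between media without gal11-myc med3Δ YPD replicate 3 (-0.0767). With 1 array left out these ran from -0.30 to 0.11 and from -0.0767 to 0.25. The cause was not tested.

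Counts of arginine genes moved as follows. With the replicate block within medium, 2 fell in gal11-myc med3Δ in YPD, and with the block in YPD only, 2 fell there and 2 rose in gal11Δ med3Δ in YPD. Fits of the compared groups alone gave 5 that rose in gal11Δ med3Δ and 2 in gal11-myc med3Δ in CSM, and 1 higher in gal11-myc med3Δ than in gal11Δ med3Δ in CSM. The same fits lost calls in YPD, with 3 that fell in gal11Δ med3Δ, 2 that rose in gal11-myc med3Δ and 2 higher between mutants. Without BY4742, 5 rose and 1 fell in gal11Δ med3Δ in CSM, and 1 fell there with all probe sets or with array weights. With array medians subtracted, 1 fell in gal11-myc med3Δ in YPD. By the authors' deposited values 0 rose in either mutant and 0 fell in gal11Δ med3Δ in YPD, while 5 and 2 rose in CSM. Without the YPD arrays numbered 3, 2 rose in gal11Δ med3Δ and 2 fell in gal11-myc med3Δ in YPD, 1 passed downward between media in gal11Δ med3Δ, and 5 (YPD) and 1 (CSM) were higher in gal11-myc med3Δ than in gal11Δ med3Δ.

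A 1.5-fold threshold in place of 2-fold raised the calls among all genes, by its construction, from 407 to 998 (YPD) and from 506 to 1068 (CSM) in gal11Δ med3Δ, from 236 to 620 and from 339 to 817 in gal11-myc med3Δ, from 391 to 948 and from 167 to 483 between media, and from 110 to 328 and from 118 to 299 between mutants. The authors' deposited table called 103 in gal11-myc med3Δ in YPD. With 1 array left out, the same 8 counts at 2-fold ran from 391 to 448, 495 to 517, 239 to 271, 334 to 343, 358 to 459, 152 to 219, 85 to 165 and 108 to 127.

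With 1 array left out, the arginine genes that rose numbered 1 to 2 (YPD) and 3 (CSM) in gal11Δ med3Δ, 3 to 4 and 1 in gal11-myc med3Δ, 2 to 3 and 1 between media, and 2 to 6 and 0 between mutants. Those that fell numbered 3 to 4 and 1 to 2, 0 to 3 and 1 to 3, 0 and 2 to 3, and 0 and 3 to 4 in the same order. In CSM, where the replicate numbers do not pair arrays, the block within medium added ARG1 in gal11Δ med3Δ (adjusted p = 0.0245), as did the block in YPD only (0.0143). With 3 arrays a group, centred within each medium, levels and strain by medium means are out of reach.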
